A study of Caenorhabditis elegans with 2 samples.

Results

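The 649 annotated 21U-RNA genes that lie away from chromosome IV, of 15363 in the genome (4.22%), were examined for binding of SNPC-4. Each was taken from the Ensembl annotation of WBcel235 by its piRNA biotype and its chromosome, without use of any measured value, and a window of 300 bp to each side of its annotated 5' end was searched for peak summits. The other 14714 genes (95.8%) lie on chromosome IV. The measurement was chromatin immunoprecipitation followed by sequencing (ChIP-seq) of eGFP-tagged SNPC-4 in whole young adult Caenorhabditis elegans, pooled male and female, of strain OP179, which carries the mutation unc-119(ed3) III and the integrated transgene wgIs179. There was 1 group of 2 biological replicates with a library fragment size of 150 to 350 bp and no second genotype, treatment or time. The tagged protein comes from a transgene, and in whole animals the germ line cannot be told apart from other tissues. The labels do not say whether the untagged protein was still made. The labels name a possible control experiment, which was not analysed here. Read depth is unknown, so all intervals below cover the counting of genes or peaks only.

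21U-RNAs are the piRNAs of C. elegans: 21-base RNAs that mostly begin with uridine, are bound by the Piwi protein PRG-1 in the germ line and guide the silencing of foreign and selfish sequences. Most are made as short precursors by RNA polymerase II from their own small promoters, which in the large clusters of chromosome IV carry an upstream core motif (the Ruby motif). SNPC-4 contacts DNA as part of SNAPc, a complex named for activating small nuclear RNA genes. Together with the factors PRDE-1, TOFU-4 and TOFU-5 it also acts at 21U-RNA clusters.

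The sequences of 7 of the 9 genes with a summit in the most stringent peak list are shown first, because the counts in that list turn on them. Those of 21ur-12279 and 21ur-11631, whose values are given further on, are not printed here. Each line gives 60 bases upstream of the 5' end in lower case and the 21-base RNA in capitals, read 5' to 3' on the gene's strand from the RefSeq WBcel235 genome. The regions are chrII:6968318-6968398 (- strand) for 21ur-14704, chrII:5062035-5062115 (+ strand) for 21ur-11529, chrII:1320673-1320753 (+ strand) for 21ur-13751, chrIII:7189965-7190045 (+ strand) for 21ur-7304, chrIII:7189969-7190049 (+ strand) for 21ur-10581, chrIII:6173354-6173434 (+ strand) for 21ur-14724 and chrV:11412488-11412568 (+ strand) for 21ur-12485. None of them holds the core motif CTGTTTCA, and 21ur-7304 and 21ur-10581 overlap with 5' ends 4 bp apart.
21ur-14704: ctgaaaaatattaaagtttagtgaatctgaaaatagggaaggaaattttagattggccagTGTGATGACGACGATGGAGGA
21ur-11529: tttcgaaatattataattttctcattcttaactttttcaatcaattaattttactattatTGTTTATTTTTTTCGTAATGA
21ur-13751: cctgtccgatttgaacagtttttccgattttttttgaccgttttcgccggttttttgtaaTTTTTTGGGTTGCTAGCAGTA
21ur-7304: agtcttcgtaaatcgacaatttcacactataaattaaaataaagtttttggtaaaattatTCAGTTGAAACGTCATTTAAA
21ur-10581: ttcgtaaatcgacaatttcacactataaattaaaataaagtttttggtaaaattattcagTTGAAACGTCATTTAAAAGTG
21ur-14724: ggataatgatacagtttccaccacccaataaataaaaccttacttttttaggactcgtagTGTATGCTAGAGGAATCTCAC
21ur-12485: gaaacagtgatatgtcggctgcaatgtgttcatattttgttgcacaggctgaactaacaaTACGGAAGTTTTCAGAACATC

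The second set holds the core motif upstream, in capitals here, with the RNA as the last 21 bases. It is shown for the position of the motif. Those off chromosome IV were picked among the motif genes with a summit in any relaxed list, and the cluster genes were picked for strong peaks, so the set does not compare signal between them. The first 4 lie away from chromosome IV, at chrV:13405452-13405532 (- strand) for 21ur-14700, chrV:13081328-13081408 (- strand) for 21ur-11069, chrX:8297981-8298061 (- strand) for 21ur-15115 and chrX:15215617-15215697 (- strand) for 21ur-9904. The last 2 are cluster genes of chromosome IV with strong peaks, for comparison, at chrIV:16167683-16167763 (+ strand) for 21ur-14607 and chrIV:16035336-16035416 (+ strand) for 21ur-5641. The motif sits at nearly the same place in all 6, starting 45 to 49 bases before the RNA. Among the genes that those off chromosome IV were picked from, 21ur-15373, not printed, has it 88 bases before the RNA. Of all 45 motif genes off chromosome IV, 42 have it starting 50 to 40 bases before the RNA.
21ur-14700: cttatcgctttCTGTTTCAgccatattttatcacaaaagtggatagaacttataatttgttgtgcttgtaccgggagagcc
21ur-11069: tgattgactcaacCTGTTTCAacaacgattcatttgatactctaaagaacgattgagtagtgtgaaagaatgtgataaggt
21ur-15115: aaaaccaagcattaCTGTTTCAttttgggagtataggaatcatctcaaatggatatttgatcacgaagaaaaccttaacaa
21ur-9904: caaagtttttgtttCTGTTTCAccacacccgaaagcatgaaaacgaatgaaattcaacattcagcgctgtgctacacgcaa
21ur-14607: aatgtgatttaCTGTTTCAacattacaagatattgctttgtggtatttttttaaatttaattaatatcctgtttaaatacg
21ur-5641: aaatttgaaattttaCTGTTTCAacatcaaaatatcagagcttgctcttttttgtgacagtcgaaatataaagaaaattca

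Scattered 21U-RNA genes were short of the crowding that marks chromosome IV, and their annotated RNAs had the same form. All 649 annotated RNAs were 21 bases long, and 622 (95.8%) began with T in the DNA, as did 96.2% on chromosome IV. These traits are part of how 21U-RNAs are described, so the likeness is no separate result. No RNA was measured here. The median distance to the nearest other 21U-RNA gene was 37466 bp, against 58 bp in the dense windows of chromosome IV, which are 54 windows of 100 kb with at least 50 such genes each, and 1389 bp elsewhere on that chromosome. Only 49 of the 649 had another within 1000 bp. Merged where they overlap, the windows came to 629 stretches and 381159 bp, 0.460% of the sequence off chromosome IV. Each RNA sequence occurred once in the genome, and in 554 windows every 36-mer was unique. In 4 windows fewer than 50% were unique.

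The 4 peak lists differ in stringency. A relaxed list holds peaks together with background and was given for each replicate and for the pooled reads. The optimal list is the authors' list after their reproducibility filter, with 1781 peaks, 1067 of them off chromosome IV. These were the 1781 strongest pooled peaks, and 845 of them had a summit within 200 bp among the strongest 1781 peaks of both replicates. The pooled list held 30000 peaks (19676 off chromosome IV), replicate 1 had 20730 (13326) and replicate 2 had 30000 (20368). Signal values are those of the authors' peak caller. They were used only within a list.

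The number of these 21U-RNA genes with an SNPC-4 summit stayed within the range that shifted summits gave. In the optimal list 9 of 649 genes had a summit in the window (1.39%, 95% Clopper-Pearson interval 0.636 to 2.62%), where 3.85% of protein-coding genes off chromosome IV did. In the pooled list 81 genes did (12.5%, 10.04 to 15.3%), against 24.5% of protein-coding genes. Replicate 1 gave 64 genes (9.86%, 7.68 to 12.4%) against 18.8%, and replicate 2 gave 99 (15.3%, 12.6 to 18.3%) against 25.7%. For a background level, all summits were shifted along each chromosome in equal steps of 1/1000 of its length, which keeps their spacing. The shifted summits gave a mean of 0.759% in the optimal list (central 95% of shifts 0.154 to 1.54%), 13.1% in the pooled list (10.5 to 16.0%), 9.03% in replicate 1 (6.78 to 11.4%) and 13.9% in replicate 2 (11.4 to 16.5%). The measured shares lay inside these ranges in all 4 lists. As many genes or more with an optimal summit came from 7.51% of shifts.

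Counting peaks instead of genes, so that genes sharing a peak counted once, gave the same picture. There were 8 distinct optimal peaks at the 649 windows, where shifted summits gave a mean of 4.84 (central range 1 to 10). Of the pooled peaks 82 lay in the windows, against 88.9 (71 to 109). Replicate 1 had 65 against 60.5 (45 to 76) and replicate 2 had 96 against 91.9 (75 to 110).

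Protein-coding promoters on the same chromosomes stood apart from the shifted summits in every list. Their shares were 4.99 times the shifted mean in the optimal list, 1.84 times in the pooled list, 2.07 times in replicate 1 and 1.83 times in replicate 2, and no shift reached the measured share. The difference from 21U-RNA genes was itself compared with the shifts. The 21U-RNA share was 0.510 of the protein-coding share in the pooled list, 0.524 in replicate 1 and 0.594 in replicate 2. No shift gave so low a ratio in these lists. For optimal summits the ratio was 0.361, which rests on 9 genes and lay inside the shifted range of 0.196 to 1.96.

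Dense windows of chromosome IV were at the other extreme. Among the 14124 genes there, 82.3% had a pooled summit, 69.5% a replicate 1 summit, 80.1% a replicate 2 summit and 8.80% an optimal summit. The share off chromosome IV was 0.152 of the dense share in the pooled list, 0.142 in replicate 1 and 0.190 in replicate 2. So low a ratio came from 0%, 0.300% and 0.100% of shifts, in that order. For optimal summits the ratio of 0.158 lay inside the shifted range (0.0548 to 1.52). Shifted ratios to the dense genes had medians of 0.353 in the optimal list and 0.474 in the pooled list, far from equal shares. A ratio inside such a range does not show that the shares are alike. The optimal shares were 1.39% (0.636 to 2.62%) off chromosome IV and 8.80% (8.34 to 9.28%) in the dense windows. Genes packed as closely as in the dense windows share peaks, so their shares are not counts of separate binding sites. The 590 genes of chromosome IV outside the dense windows had a pooled summit in 23.1% of cases, and the ratio to them was inside the shifted range in all 3 relaxed lists (pooled 0.541, shifted range 0.256 to 0.705). Among optimal summits it was 1.36, above the shifted range of 0.0534 to 1.22, with 9 genes off chromosome IV (1.39%) and 6 on it (1.02%) behind it. Shifts on chromosome IV carry summits of the dense windows over these 590 genes. The shifted ratios therefore had medians of 0.331 in the optimal list and 0.460 in the pooled list, far from equal shares. These ranges thus do not show whether the shares of the groups differ.

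**Figure D1:**
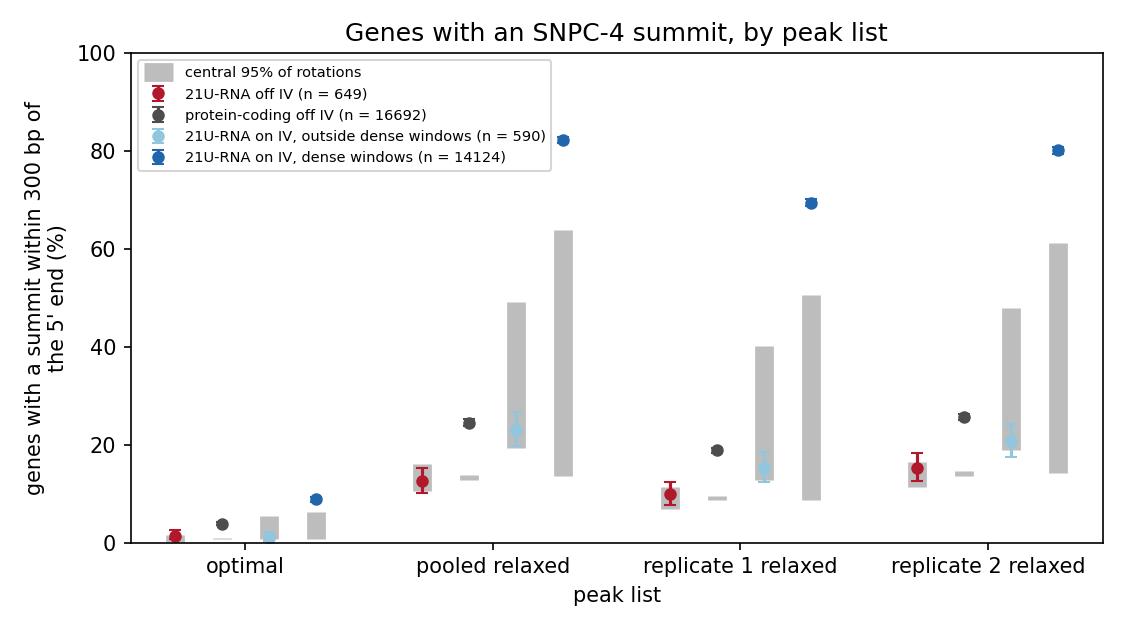
Share of genes with a summit within 300 bp of the 5' end (y axis, percent) in each of the 4 peak lists (x axis). Points with bars are shares with 95% Clopper-Pearson intervals, and grey bands are the central 95% of shifts of the summits for the same genes. The 649 genes off chromosome IV lie within their bands in every list, at 12.5% in the pooled list, while protein-coding genes (24.5%) and dense windows of chromosome IV (82.3%) lie above theirs.

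The 21U-RNA genes were split by what else started in the window. A protein-coding gene started within 300 bp of 114 of them (17.6%), a gene of another class within 300 bp of 32 (4.93%), and no other gene within 300 bp of 503 (77.5%). Beside a protein-coding start, 4 of 114 had an optimal summit (3.51%), 20 a pooled summit (17.5%), 20 a replicate 1 summit (17.5%) and 25 a replicate 2 summit (21.9%). Protein-coding genes off chromosome IV as a whole had 3.85%, 24.5%, 18.8% and 25.7% in the same order, so none of these shares was above theirs. The distinct peaks in the 114 windows numbered 4 in the optimal list against a shifted mean of 0.915 (central range 0 to 3), 20 against 10.96 in replicate 1 and 26 against 16.5 in replicate 2, all above the shifted ranges. The 22 pooled peaks, against 16.1 (9 to 24), were within it.

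Of the 503 genes with no other start nearby, 3 had an optimal summit (0.596%) and 51 a pooled summit (10.1%, 7.64 to 13.1%). The 49 pooled peaks at these loci were fewer than the shifted mean of 68.9 (54 to 86), 0.712 of it, and 0.901% of shifts gave as few. Neither replicate alone fell below its range: replicate 1 had 37 peaks against 46.8 and replicate 2 had 64 against 71.2, both within the shifted ranges and 0.791 and 0.898 of the means. With no other start allowed within 500 bp, the pooled count was again below the range, with 39 peaks against 58.8 (45 to 74), 0.664 of the mean. At 1000 bp it was at the edge of the range, with 30 against 41.7 (30 to 56), and the ratio was 0.719. These loci were selected to lack other starts, while shifted summits fall without regard to starts, so a lower count can follow from that selection. Whether other windows without a gene start have as few peaks was not tested.

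The difference between the windows with a protein-coding start and those with no other start was set against the same shifts. Genes beside a protein-coding start exceeded those with no other start by 2.91 percentage points in the optimal list, 7.40 in the pooled list, 10.2 in replicate 1 and 8.41 in replicate 2. So large a difference came from 0.300%, 2.10%, 0% and 0.801% of shifts. All 4 differences were above the central 95% of shifts. The windows were split by whether they held a protein-coding start, and the shifts take no account of gene starts. Protein-coding starts in general lay above the shifted summits, so differences of this kind can follow from the split alone. They therefore do not show an effect of the piRNA genes themselves. Windows away from these genes, with and without a gene start, were not tested.

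The 32 windows with the start of another gene class held 10 genes with a pooled summit (31.3%), 7 with a replicate 1 summit and 6 with a replicate 2 summit. Their 11 pooled peaks compared with a shifted mean of 4.05 (1 to 8). Replicate 1 had 8 peaks against 2.80 (0 to 6), also above its range. Replicate 2, with 6 against 4.27 (1 to 9), and the optimal list, with 2 against 0.238 (0 to 2), were within theirs. Over all windows, with or without a protein-coding start, 7 of 16 genes beside an ncRNA gene, 2 of 5 beside a tRNA gene and the 1 beside an snRNA gene had a pooled summit. So did 1 of 12 beside a pseudogene, 1 of 3 beside a lincRNA gene, 0 of 2 beside a snoRNA gene and 0 of 1 beside a miRNA gene. In replicate 2 the counts were 5 beside an ncRNA gene and 1 beside a tRNA gene. The share over all genes of each class was not set beside these small counts.

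**Figure D2:**
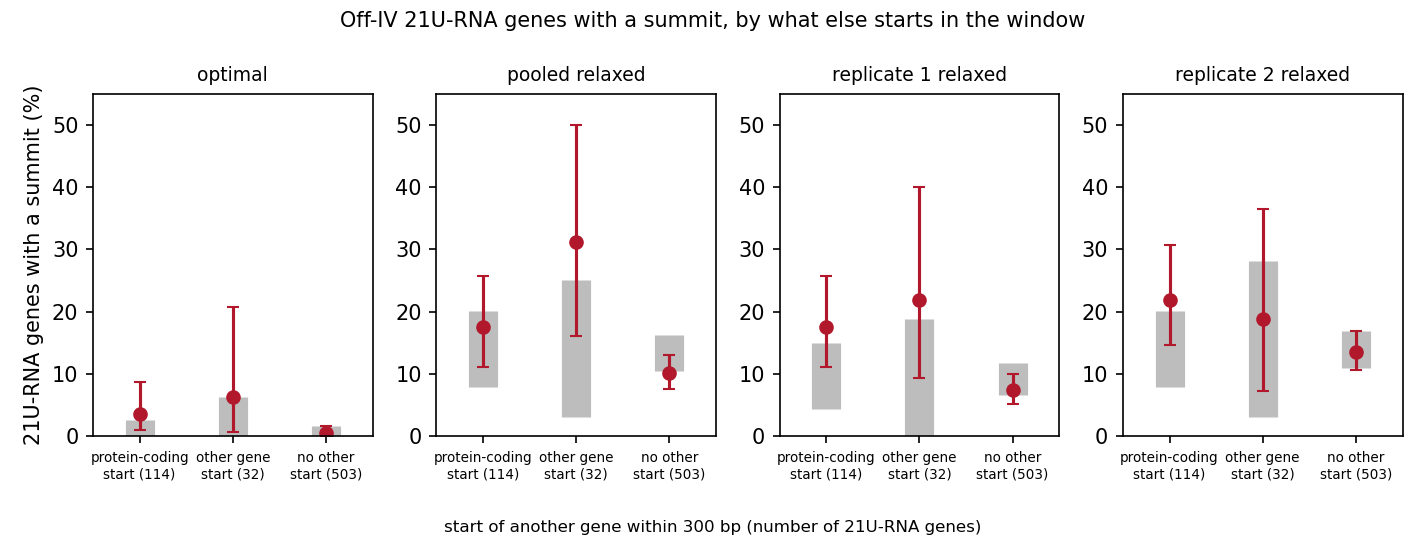
Share of 21U-RNA genes off chromosome IV with a summit (y axis, percent) by the start of another gene within 300 bp (x axis, number of genes in parentheses), 1 panel per peak list. Points with bars are shares with 95% Clopper-Pearson intervals and grey bands the central 95% of shifts. In the pooled panel the point for no other start, 10.1%, sits just under its band.

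Protein-coding promoters that share a window with a 21U-RNA gene were also counted from their own side. Of 118 protein-coding starts of this kind, 5 had an optimal summit (4.24%, 1.39 to 9.61%) and 21 a pooled summit (17.8%, 11.4 to 25.9%). Replicate 1 gave 25 (21.2%, 14.2 to 29.7%) and replicate 2 gave 26 (22.0%, 14.9 to 30.6%). The other 16574 protein-coding starts off chromosome IV had shares of 3.84%, 24.5%, 18.8% and 25.7% in the same order, each inside the interval of the shared promoters. The median signal of pooled summits was 12.6 at the shared promoters and 11.002 at the others.

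About 1 in 3 relaxed peaks in the windows lay beside another gene's start. Another gene started within 300 bp of the summit in 27 of 82 pooled peaks (32.9%, 22.9 to 44.2%), 24 of 65 in replicate 1 (36.9%) and 32 of 96 in replicate 2 (33.3%). Among peaks off chromosome IV away from these windows the shares were 29.5%, 32.9% and 29.3%. Optimal peaks did so in 7 of 8 cases (87.5%) in the windows and in 68.5% elsewhere off chromosome IV.

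The shares by place within genes differed in order between lists. There were 201 21U-RNA genes in exons of protein-coding genes (18 with a pooled summit, 8.96%), 160 in introns (20, 12.5%) and 288 outside protein-coding genes (43, 14.9%). On the same strand as the host gene 20 of 169 had one (11.8%) and on the opposite strand 14 of 179 (7.82%). Of the 13 with host genes on both strands 4 had one (30.8%, 9.09 to 61.4%). In replicate 2 exons had a share of 15.9% and introns 11.9%, the reverse of the pooled order. None of these splits was tested.

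Signal of the relaxed peaks in the windows had a median close to that of all peaks off chromosome IV. The pooled peaks in the windows had a median signal of 6.75 (quartiles 5.29 and 13.0, range 3.21 to 328), and all pooled peaks off chromosome IV had 6.71. Peaks at protein-coding starts had 9.53 and peaks at the dense chromosome IV genes 12.1. In the order of windows, all off chromosome IV, protein-coding starts and dense genes, the medians were 3.81, 3.75, 4.73 and 6.62 in replicate 1 and 4.77, 5.11, 6.86 and 8.65 in replicate 2. Both replicates thus placed protein-coding starts and dense genes above the windows. The 8 optimal peaks had a median of 56.9 against 43.1 for all off chromosome IV.

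The replicates shared part of their summits at these genes. Of the 649 genes, 34 had a summit in both replicates' own lists, which is 53.1% of the 64 in replicate 1 and 34.3% of the 99 in replicate 2. At protein-coding genes off chromosome IV the overlap was 62.7% and 45.9%, and in the dense windows 84.9% and 73.6%. These shares of overlap were higher in both sets, and the difference was not tested. Of the 81 genes with a pooled summit, 29 had one in both replicates, 37 in 1 and 15 in neither. In all, 505 genes (77.8%) had none in any relaxed list. Where both replicates had a summit, the gap between them had a median of 53 bp, and 22 of 34 lay within 100 bp of each other.

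The 9 genes with an optimal summit had one in both replicates. The strongest was 21ur-14704, whose pooled signal was 328, with 117 in replicate 1 and 215 in replicate 2. Its summit lay 271 bp upstream of the 21U-RNA 5' end but 51 bp upstream of sup-39, annotated as a small nuclear RNA gene, a class of known SNAPc target. The ncRNA gene C15F1.14 also starts in that window, and 83.6% of the window's 36-mers were unique. The next was 21ur-12279, with 93.6 in the pooled list, 31.3 in replicate 1 and 61.0 in replicate 2. Its summit was 12 bp upstream of atp-1, which encodes the alpha subunit of the mitochondrial ATP synthase, and mcrs-1 starts in the window too.

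The third, 21ur-11529, had 82.3 in the pooled list, 26.6 in replicate 1 and 53.3 in replicate 2. It lies beside smc-5, a gene of the SMC5/6 chromosome maintenance complex, with the summit 159 bp upstream of that gene. 21ur-13751 had 68.9 pooled, 24.3 in replicate 1 and 47.0 in replicate 2, and is the strongest of the genes with no other start within 300 bp. Its summit lay 127 bp upstream of the 21U-RNA 5' end and 431 bp upstream of the nearest other start, that of vig-1. Both peaks lay on the upstream side of the nearest protein-coding gene.

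21ur-7304 and 21ur-10581 share 1 peak, with 45.0 pooled, 10.8 in replicate 1 and 32.5 in replicate 2. The nearest other start was that of rps-21, a small-subunit ribosomal protein gene, 280 bp from the summit. 21ur-11631 had 44.8 pooled, 23.1 in replicate 1 and 24.7 in replicate 2, and its 5' end was 1 bp from the start of the ncRNA gene D1007.22, with rps-10, another ribosomal protein gene, in the window. 21ur-14724 had 34.5 pooled, 4.71 in replicate 1 and 27.0 in replicate 2, beside abcf-3 and F42A10.5. 21ur-12485 had 32.5 pooled, 4.98 in replicate 1 and 21.8 in replicate 2, and lies near the tRNA gene K03B8.t1, 57 bp from the summit. For the last pair the replicate 1 signal was close to that list's median of 4.17, while replicate 2 was well above its median of 5.53.

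At all 9 genes, which hold 8 distinct optimal peaks, the summit lay upstream of the 21U-RNA 5' end. It did so at 91.9% of protein-coding genes off chromosome IV with an optimal summit. Another gene started within 300 bp of the summit in 7 of the 8 peaks. The 3 farthest inside the 300 bp limit were at 184, 202 and 271 bp, for 21ur-12485, 21ur-14724 and 21ur-14704. The nearest outside were at 568 bp for 21ur-13226, 625 bp for 21ur-15036 and 727 bp for 21ur-10927, the last of which had a pooled summit of its own with signal 11.1.

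Below the optimal list, the strongest was 21ur-14279 with 27.5 pooled, 11.6 in replicate 1 and 15.3 in replicate 2. It had no other start in the window, and the nearest to its summit was sur-5, a Ras pathway gene, at 1052 bp. 21ur-12756, with the starts of D2005.4 and D2005.3 in its window, had 26.6 pooled, 7.997 in replicate 1 and 21.6 in replicate 2. 21ur-13808, near the pseudogene ZK637.6, had 25.2, 11.3 and 11.3. 21ur-12286 had 23.9 pooled and 16.1 in replicate 2, with no summit in replicate 1. 21ur-12807 had 21.1 pooled, 2.08 in replicate 1 and 18.55 in replicate 2. Its summit lay 373 bp from the start of wee-1.3, a kinase gene of the cell cycle.

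**Figure D3:**
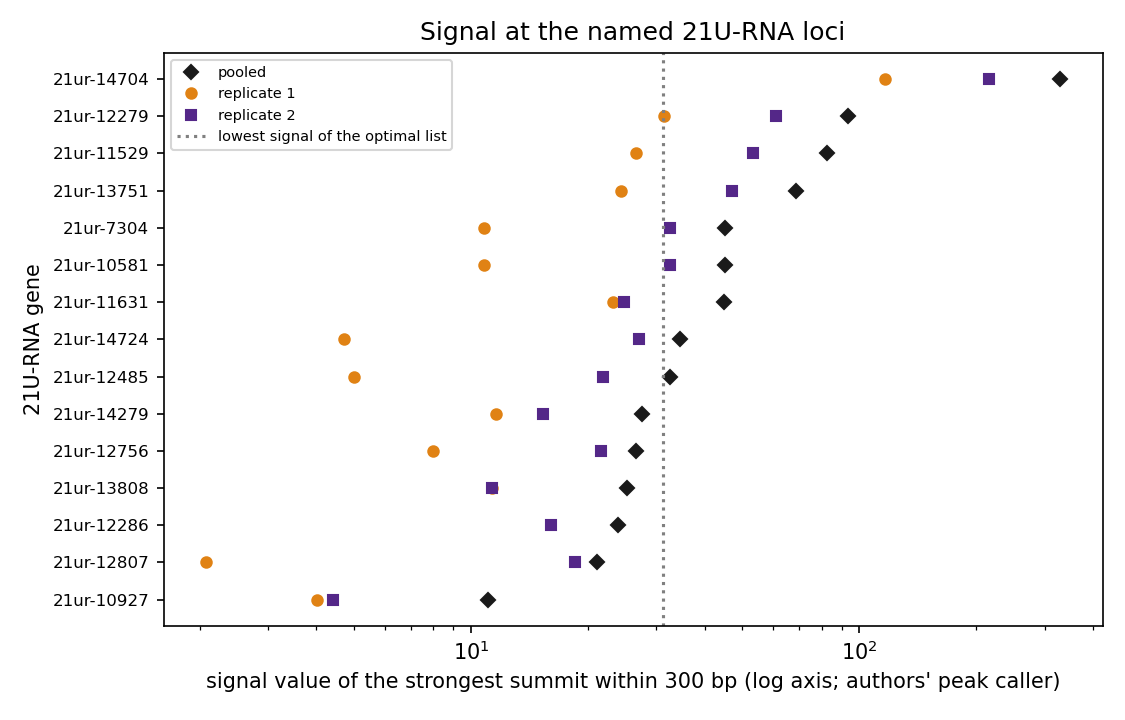
Signal of the strongest summit within 300 bp (x axis, log scale, units of the authors' caller) at each named 21U-RNA gene with a pooled summit (y axis) in the pooled list and in both replicates. The dotted line marks the lowest signal of the optimal list, 31.1. The range runs from 11.1 to 328 in the pooled list, and no replicate 1 point is drawn for 21ur-12286, which had no summit there.

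By chromosome, pooled shares ran from 9.26% to 16.7%. Chromosome I had 98 of the genes, with 15 pooled summits (15.3%) and 2 optimal ones. Chromosome II had 109, with 15 (13.8%) and 3. Chromosome III had 78, with 13 (16.7%) and 3. Chromosome V, the most populated with 202, had 23 (11.4%) and 1. Chromosome X had 162, with 15 (9.26%) and 0, which with 3 counts as the limit allows a share of up to 1.85%. In the replicates chromosome V, not X, had the lowest share. It was 5.94% in replicate 1 (X 8.02%) and 12.9% in replicate 2 (X 13.6%). Chromosome III was highest in both, at 15.4% and 25.6%. Shares of other genes were not set beside these by chromosome, and the differences were not tested.

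Summits were spread over the window on both sides of the 5' end. Pooled summits lay a median of 42 bp upstream of the 5' end (quartiles 171 bp upstream and 127 bp downstream), 53.1% were upstream, and 25 of 81 (30.9%) fell within 100 bp. In dense chromosome IV windows the median was 17 bp upstream and 42.8% fell within 100 bp. Where a protein-coding gene also started, 17 of 20 summits lay upstream, with a median of 131 bp, and where no other gene did, 23 of 51 lay upstream. Of the 81 strongest summits, 11 lay closer to another gene's start than to the 21U-RNA gene's, and 54 had no other start within 300 bp of the summit.

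The core motif was present at a small share of these genes, at the same place as on chromosome IV. The letters searched were CTGTTTCA on the gene's strand within 100 bp upstream. The motif was found in 45 of 649 (6.93%, 5.10 to 9.17%), in 35.1% of the 21U-RNA genes of chromosome IV and in 78 of 16692 protein-coding genes off chromosome IV (0.467%), windows of the same length. On the other strand it was found in 4 (0.616%), 2.64% and 0.186%. It started at a median of 46 bp before the RNA, with quartiles of 47 and 45 bp, in the genes off chromosome IV and in those on it, and 42 of 45 starts were between 50 and 40 bp before the RNA. The median was 37 bp among protein-coding genes that held it. Of the 45 genes, 42 had no other gene start in the window, 44 began with T, and the nearest 21U-RNA gene was a median of 43403 bp away. GC content of the 100 bp upstream had medians of 31% off chromosome IV, 26% on it and 32% at protein-coding genes.

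**Figure D4:**
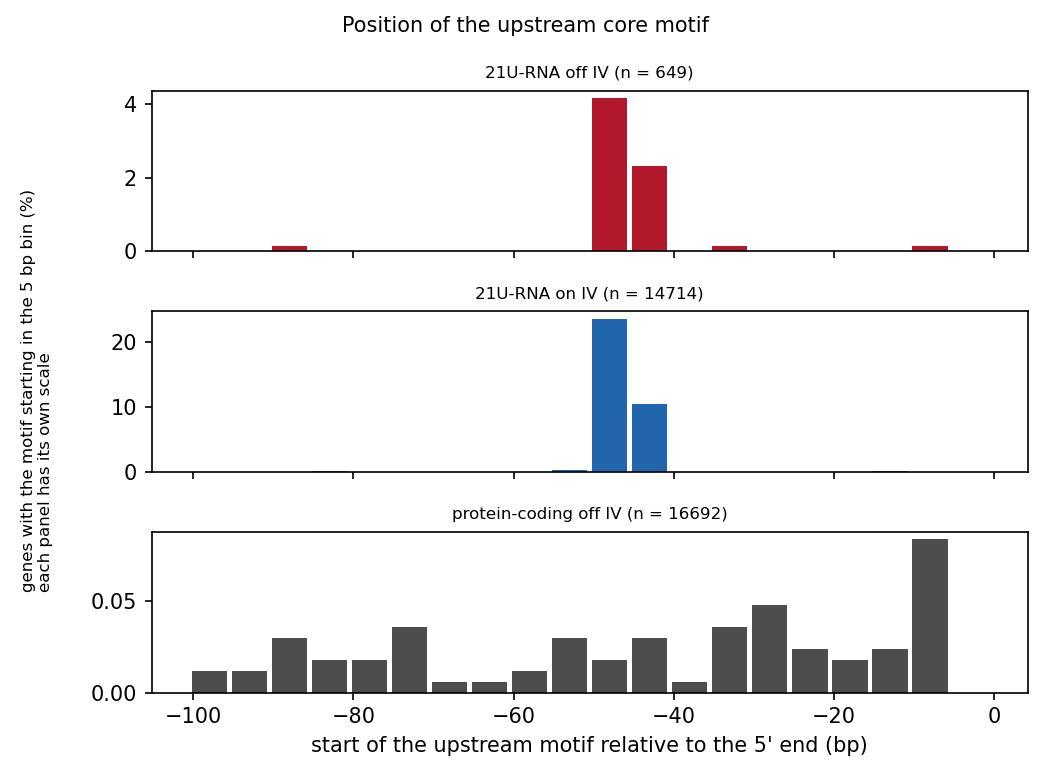
Share of genes with the core motif starting in each 5 bp bin (y axis, percent, a separate scale per panel) against the motif's start relative to the 5' end (x axis, bp) for 21U-RNA genes off chromosome IV, those on it and protein-coding genes off it. The motif starts lie between 50 and 40 bp upstream in 42 of 45 genes off chromosome IV, while those of protein-coding genes are spread out.

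The number of motif genes with a summit stayed within the shifted range in all 4 lists. Of the 45 genes with it, 0 had an optimal summit, which allows a share of up to 6.67%, 4 a pooled summit (8.89%, 2.48 to 21.2%), 4 a replicate 1 summit and 3 a replicate 2 summit (6.67%). Of the 604 without it, 9, 77 (12.7%), 60 (9.93%) and 96 (15.9%) had one. In dense chromosome IV windows the pooled share was 84.8% with the motif and 80.9% without, and outside those windows 29.4% and 20.3%. The interval for the 45 genes is wide and covers the share of the other 604 in the pooled list. For the 45, shifted summits gave means of 0.350 genes in the optimal list (0 to 2) and 6.08 in the pooled list (2 to 11). The means were 4.13 in replicate 1 (1 to 9) and 6.37 in replicate 2 (2 to 12).

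Among the 45 motif genes, 8 had a summit in a relaxed list. The strongest in the pooled list was 21ur-13310, with 18.2 and a summit 156 bp downstream, 3.16 in replicate 2 and none in replicate 1. 21ur-14201 had 6.04 pooled, 12.1 in replicate 1 and none in replicate 2. 21ur-15373, the 1 of the 8 with a protein-coding start (pho-9) in its window, had its motif 88 bp upstream, with 5.47 pooled and 4.52 in replicate 1. None of these 3 thus had a summit in all of the relaxed lists. 21ur-14700 had 5.57 in the pooled list, with the summit 271 bp downstream, and no summit in either replicate list. 21ur-11069 had 3.74 and 21ur-11977 had 2.97, both in replicate 2 alone. 21ur-15115 had 2.79 and 21ur-9904 had 2.08, both in replicate 1 alone. Apart from 21ur-13310 and the replicate 1 summit of 21ur-14201, these values lay near or below the medians of their lists (7.38 pooled, 4.17 in replicate 1 and 5.53 in replicate 2). The cluster gene 21ur-14607, picked for its strong peak, had 83.0 pooled, 26.2 in replicate 1 and 59.8 in replicate 2, with its summit 91 bp upstream. 21ur-5641 had 63.5, 38.3 and 30.7, with the summit 62 bp upstream.

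Sparse 21U-RNA genes, on and off chromosome IV, had lower shares of summits than the most crowded genes of chromosome IV. Among genes off chromosome IV, 249 had no other 21U-RNA gene within 50 kb and 400 had 1 to 4, with pooled summits in 13.7% (9.65 to 18.6%) and 11.8% (8.76 to 15.3%). Equally sparse genes on chromosome IV gave 18.8% of 16 (4.05 to 45.6%) and 9.16% of 131 (4.82 to 15.5%). On chromosome IV the share was 14.5% with 5 to 19 neighbours, 47.5% with 20 to 99 and 82.6% of 13944 genes with 100 or more. Replicate 1 gave 7.63% with 1 to 4 neighbours and 70.0% with 100 or more, and replicate 2 gave 11.5% and 80.4%. The 16 genes of chromosome IV without a neighbour had 18.8% in replicate 1 (4.05 to 45.6%) and 25% in replicate 2 (7.27 to 52.4%). Windows in a crowd overlap and share peaks, and the part of this in the shares was not tested. The share of genes with the motif was 8.43% and 6% in the 2 groups off chromosome IV. On chromosome IV it was 6.25%, 13.7%, 29.4%, 42.5% and 35.2% from the sparsest group to the most crowded, so the most crowded group did not have the highest share.

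**Figure D5:**
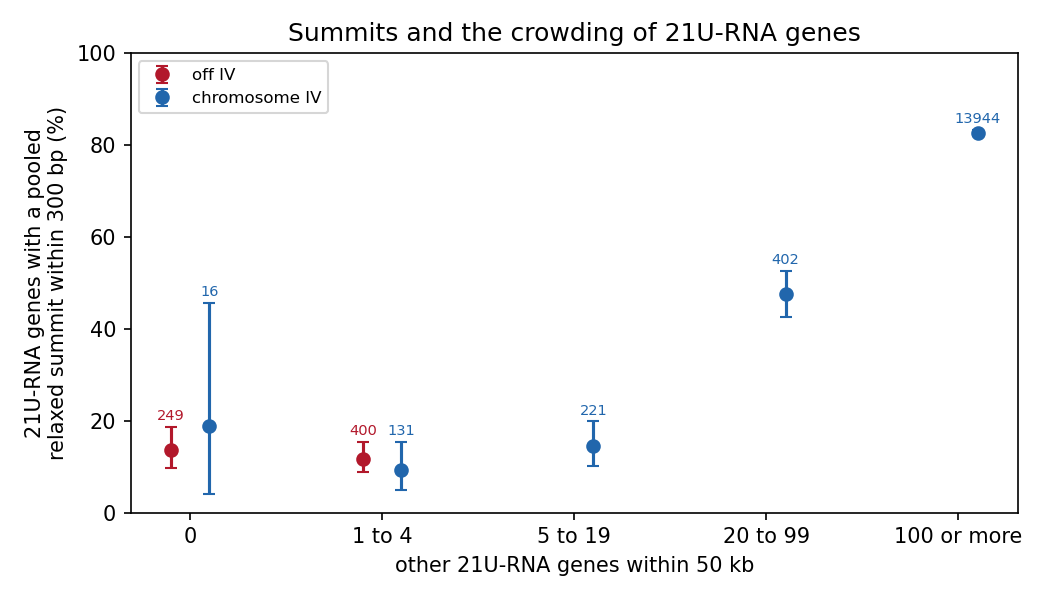
Share of 21U-RNA genes with a pooled summit within 300 bp (y axis, percent, 95% Clopper-Pearson intervals) by the number of other 21U-RNA genes within 50 kb (x axis), for genes off chromosome IV and on it, with the number of genes above each point. With 1 to 4 neighbours the share is 11.8% off chromosome IV and 9.16% on it, and with 100 or more on chromosome IV it is 82.6%.

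Genes of the 21U-RNA pathway itself, all off chromosome IV, were read in the same way. Of 15 listed genes, 14 were matched by symbol and tofu-3 was not. Among the 14, 1 had an optimal summit at its 5' end, where 3.85% of protein-coding genes off chromosome IV did. A pooled summit was found at 6 of them (24.5% of protein-coding genes), a replicate 1 summit at 6 (18.8%) and a replicate 2 summit at 6 (25.7%). The optimal one was snpc-4, which encodes the protein pulled down, with 131 in the pooled list, 32.8 in replicate 1 and 106 in replicate 2. The transgene expresses tagged SNPC-4, and its part in this value was not tested. The pooled summits of prde-1 (12.8) and attf-6 (13.4), which act in 21U-RNA transcription or its chromatin, and of pid-3 (13.4), tost-1 (18.1) and tofu-6 (21.3), which act in precursor processing, were below the optimal list. No pooled summit lay at prg-1, tofu-4, tofu-5, snpc-1.3, unc-130, henn-1, parn-1 or pid-1.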

How the data were processed

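Per the file records, the authors made peak lists in the narrowPeak format for each replicate, for the pooled reads and as an optimal list. The deposited signal value of each peak (column 7) is the authors' own enrichment measure from their peak caller and was used as a signal within a list. For the aligner, the caller and the reproducibility threshold, names and values are not given in the sources used here. Only lists on ce11, which is WBcel235, were read, and those on ce10 were not used here. A summit was taken as the peak start plus its offset, counted from 1.

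Summits were shifted by k/1000 of each chromosome's length for every whole k from 1 up to the last before 1000. A count outside the central 95% was past the threshold. The count was tested on simulated data. Windows of 150, 500 and 1000 bp, shorter lists and single replicates were tried. Named genes were those with an optimal summit, the 12 strongest pooled, the 6 strongest with no other start, those nearest the limit and the strongest per chromosome. The genes with printed motifs were chosen after their values were seen. The members and lists were chosen with earlier results of these data known. Python 3.11.15, numpy 2.4.6, pandas 2.3.3, scipy 1.17.1 and matplotlib 3.10.9 were used.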

Additional observations from a re-analysis of the deposited data

How the results depend on the processing

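The count of optimal peaks stayed within the shifted range under every alternative tried, at 0.999 to 2.42 times the shifted mean, and the count of pooled peaks at 0.863 to 1.47 times. The optimal count was on the upper limit with only the stronger part of that list, at 6 against 2.48 (0 to 6). It was also there without replicate 1, at 10 against 5.02 (1 to 10). Restricting the pooled count to windows with unique 36-mers, an alternative chosen after seeing the data, gave 0.925. The deficit at genes with no other start (0.712 of the shifted mean) was again below the range at a 500 bp limit, at 0.664, and at the edge of the range at 1000 bp, at 0.719, where fewer genes were counted. In the relaxed lists of replicates 1 and 2 themselves, already given above, it was 0.791 and 0.898, also within the range, and the cause was not tested. The share of genes with a pooled summit (12.5%) was 6.47% within 150 bp, 18.6% within 500 bp and 29.6% within 1000 bp, by the size of the window. In the relaxed lists of replicates 1 and 2 themselves, also given above, the share was 9.86% and 15.3%. The motif share of 6.93% was 10.2% for the first 7 bases and 42.8% with 1 mismatch allowed. With 1 mismatch the share was 78.9% on chromosome IV and 10.1% at protein-coding genes. The optimal share ranged from 0.924% to 2.47%. Unknown depth limits all lists: a gene with no summit is not shown to be unbound. The shifts do not keep the tie between peaks and gene-rich places.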
